A study of Mus musculus with 18 samples.

Results

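The lysosome and autophagy genes described here are 38 genes that carry out, or control, breakdown in the lysosome. They were chosen by name, as TFEB-linked lysosome, proton pump and autophagy genes, with earlier results of these data known. They fall into 6 groups by role: 3 transcription factors of the TFEB family, 4 lysosomal membrane proteins, 6 cathepsins, 7 other hydrolases and saposins, 7 parts of the proton pump and 11 autophagy genes. All 38 were found among the 56748 gene IDs of the count table, and all 38 were among the 14985 genes that passed the filter on low counts and were tested.

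The lysosome is the acidic compartment in which cells break down proteins, lipids and glycans with hydrolases, after a V-type ATPase has pumped protons across its membrane. Autophagy delivers the cell's own material to it: the ULK1 and Beclin 1 complexes start a membrane, ATG5 and ATG7 attach LC3 and GABARAP proteins to that membrane, and receptors such as p62 bring cargo. TFEB and its relatives TFE3 and MITF bind E-box sequences in promoters of these genes. The kinase complex mTORC1 holds TFEB in the cytosol and restrains ULK1 when nutrients are plentiful, and rapamycin is a partial inhibitor of mTORC1.

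RNA was sequenced from RN2, a mouse leukemia line of the acute myeloid type, driven by the MLL-AF9 fusion and a mutant Nras. The cells expressed 1 of 4 constructs delivered by lentivirus, and cells were sorted on day 5 after transduction. The study asked how base editors change gene expression in these cells. The 6 groups had 3 libraries each: seBE, whose editing is meant to be switched by a small molecule, under 1 nM rapamycin or vehicle for 24 h, intact BE, the base editor with an active deaminase, under the same rapamycin or vehicle, the catalytic mutant of intact BE, whose deaminase is inactive, and nCas9, the nickase form of Cas9 with no deaminase. Below, seBE and intact BE mean the vehicle groups unless rapamycin is named. The labels list vehicle for 24 h for the catalytic mutant and nCas9 as well, while the described drug treatment names only intact BE and seBE. All groups share the RN2 line, and the 3 libraries of a group are labelled as biological replicates, with nothing said of separate transductions. The p-values therefore reflect only how far these samples spread, which may be technical.

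Libraries held 13835979 to 23284932 counts, of which the 38 genes took 0.528% to 0.595%. Levels are given as CPM, counts scaled to a common library size, and tests are edgeR quasi-likelihood tests with p-values adjusted over all 14985 genes and a threshold of 0.05. All 10 myeloid marker genes listed were detected, with a summed level of 2309 to 2786 CPM per library. Of 7 macrophage markers only Adgre1 passed the filter, at group means of 87.4 to 117 CPM, and the other 6 averaged at most 0.306 CPM in any group. Summed lymphocyte markers stayed at or below 0.897 CPM, endothelial markers at or below 2.81 CPM and erythroid markers at or below 1.99 CPM. Megakaryocyte markers summed to 6.69 to 16.7 CPM, nearly all of it Itga2b, while Pf4, Gp9 and Ppbp averaged at most 0.494 CPM in any group. Fibroblast markers summed to 11.6 to 26.8 CPM, nearly all of it Pdgfrb. Single myeloid markers differed between constructs, in both directions. Mpo averaged 289 CPM in intact BE, 331 CPM in the catalytic mutant and 178 CPM in nCas9. Lyz2 averaged 432 CPM in intact BE, 550 CPM in the mutant and 534 CPM in nCas9. The part of such differences in the results below was not tested. In bulk RNA, fewer cells of a type and less RNA per cell cannot be told apart. In a principal component analysis replicate 2 of nCas9 stood apart on component 2 and replicate 3 of nCas9 on component 3, and replicate 3 of the catalytic mutant differed most from its own replicates in a chi-square comparison of counts. The mean trend of level on gene length was not the same in each group, with a slope of 0.0497 ± 0.0236 log2 units per doubling of length in intact BE and -0.0588 ± 0.0183 in nCas9 (SD, n = 3 each).

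An E-box core of the kind that TFEB is known to bind was present in 12 of the 31 promoters at hand, and the longest form searched in none. RefSeq promoter sequences, 250 bases before to 50 bases after the annotated start on GRCm38.p6, were at hand for 31 of the 38 genes. The E-box core CACGTG, which reads the same on both strands, was found in 12 of the 31 (38.7%). It was in 8.09% of all 27025 genes with a promoter sequence and in 8.91% of the 17492 protein-coding ones. The longer palindrome TCACGTGA, which contains the core, was found in 7 of the 31 (22.6%), against 1.12% of all genes and 1.41% of protein-coding genes. The same palindrome with a G before it and a C after it was in none of the 31, in 0.37% of all genes and in 0.469% of protein-coding genes. The genes had been listed as TFEB-linked, so these shares describe the list and were not tested. Sequences around the longer palindrome are shown for the 7 genes that hold it, so that they can be read beside the expression values that follow. The coordinates are on GRCm38.p6, while the counts were made on GRCm39. Each runs 5′ to 3′ on the strand of its gene, with the palindrome in capitals:
Mcoln1, chr8:3500462-3500491, plus strand: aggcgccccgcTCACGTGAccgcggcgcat
Ctsa, chr2:164833749-164833778, plus strand: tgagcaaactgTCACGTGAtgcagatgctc
Ctsd, chr7:142387908-142387937, minus strand: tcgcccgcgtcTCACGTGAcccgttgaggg
Gla, chrX:134601215-134601244, minus strand: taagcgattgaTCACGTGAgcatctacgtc
Atp6v0d1, chr8:105566050-105566079, minus strand: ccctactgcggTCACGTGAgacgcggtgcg
Atp6v0e, chr17:26676387-26676416, plus strand: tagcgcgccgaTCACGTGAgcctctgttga
Atp6v1a, chr16:44139373-44139402, minus strand: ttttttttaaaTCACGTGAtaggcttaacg

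Outside the palindrome these 7 windows read differently. In Atp6v0d1 the palindrome began 4 bases before the start, and in Mcoln1 46 bases before it. Ctsa and Gla held 2 matches each, of which the first is shown: those of Ctsa began 13 bases before and 4 bases after the start, and those of Gla 228 and 195 bases before it. Atp6v1a, the member with the largest increase in intact BE over nCas9, held its palindrome 132 bases before the start, just after a run of T and A. The pump genes Atp6v0d1 and Atp6v0e hold the palindrome too and did not pass in that comparison. Whether the palindrome has a part in the increase was not tested. The promoter of Atp6v1a is shown here at greater length.
Atp6v1a, chr16:44139312-44139431, minus strand: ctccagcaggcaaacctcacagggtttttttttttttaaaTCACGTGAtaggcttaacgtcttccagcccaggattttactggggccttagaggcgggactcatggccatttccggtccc

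The core was also found in Lamp1, with 4 matches within 61 bases of the start, and in Ctsl, Gaa, Atg5 and Atg7. No match lay in the windows of Gpnmb, Lamp2 or Ctsz, which says only that these letters are not in those windows.

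**Figure D1:**
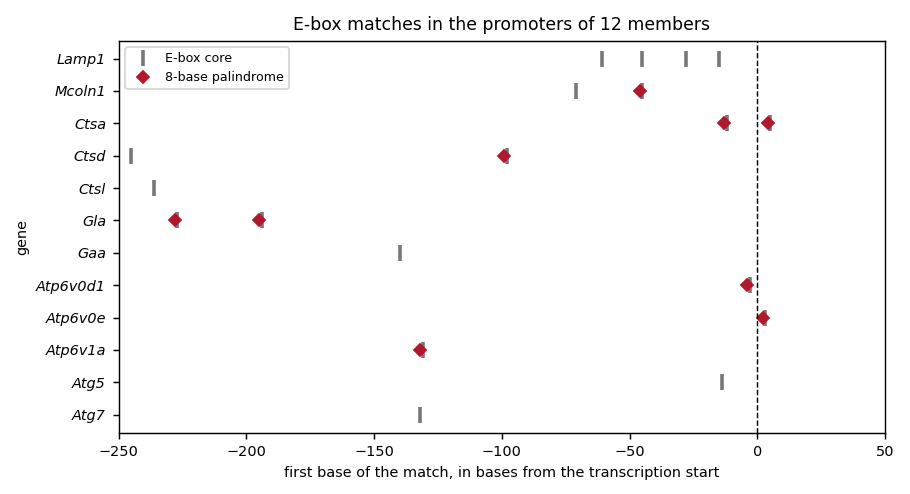
Position of E-box matches in the promoters of the 12 members that hold one. The x axis gives the first base of a match in bases from the annotated transcription start (dashed line), gray bars are matches of the core and red diamonds matches of the longer palindrome. The diamonds lie between 228 bases before and 4 bases after the start, and 4 bars of Lamp1 lie within 61 bases before it.

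The 38 genes were expressed over a wide range, and the ratios between their group means were mostly small. Per kilobase of exon and averaged over all 18 libraries, the highest levels were those of Ctsz, the gene of cathepsin Z, at 213 CPM per kb, Lamp1, a major glycoprotein of the lysosomal membrane, at 185, Hexa, a subunit of beta-hexosaminidase, at 126, and Ctsd, the gene of the aspartic protease cathepsin D, at 109. The lowest were those of Mitf at 0.674, Map1lc3a, 1 of the LC3 genes, at 1.67, and Tfeb at 1.78 CPM per kb. The ratio of the highest to the lowest group mean had a median of 1.24 over the 38 genes, against 1.43 over all genes tested, and 6 of the 38 lay above the median of all genes. The genes were not matched for level here, and this ratio also takes in the spread between libraries. A test of any difference among the 6 groups called 14 of the 38 genes (36.8%), against 31.4% of all genes. These were, in order of adjusted p, Gpnmb, Ctsz, Lamp2, Atp6v1a, Atp6v1b2, Gaa, Gabarapl2, Neu1, Map1lc3b, Atp6v1c1, Gla, Ctsl, Gabarapl1 and Ulk1. The count moved with the processing: it was 9 of the 38 without replicate 1 of intact BE under rapamycin, 23 with DESeq2, which called 5419 of all genes, and 21 in edgeR with the length trend removed, where 4217 of all genes were called.

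**Figure D2:**
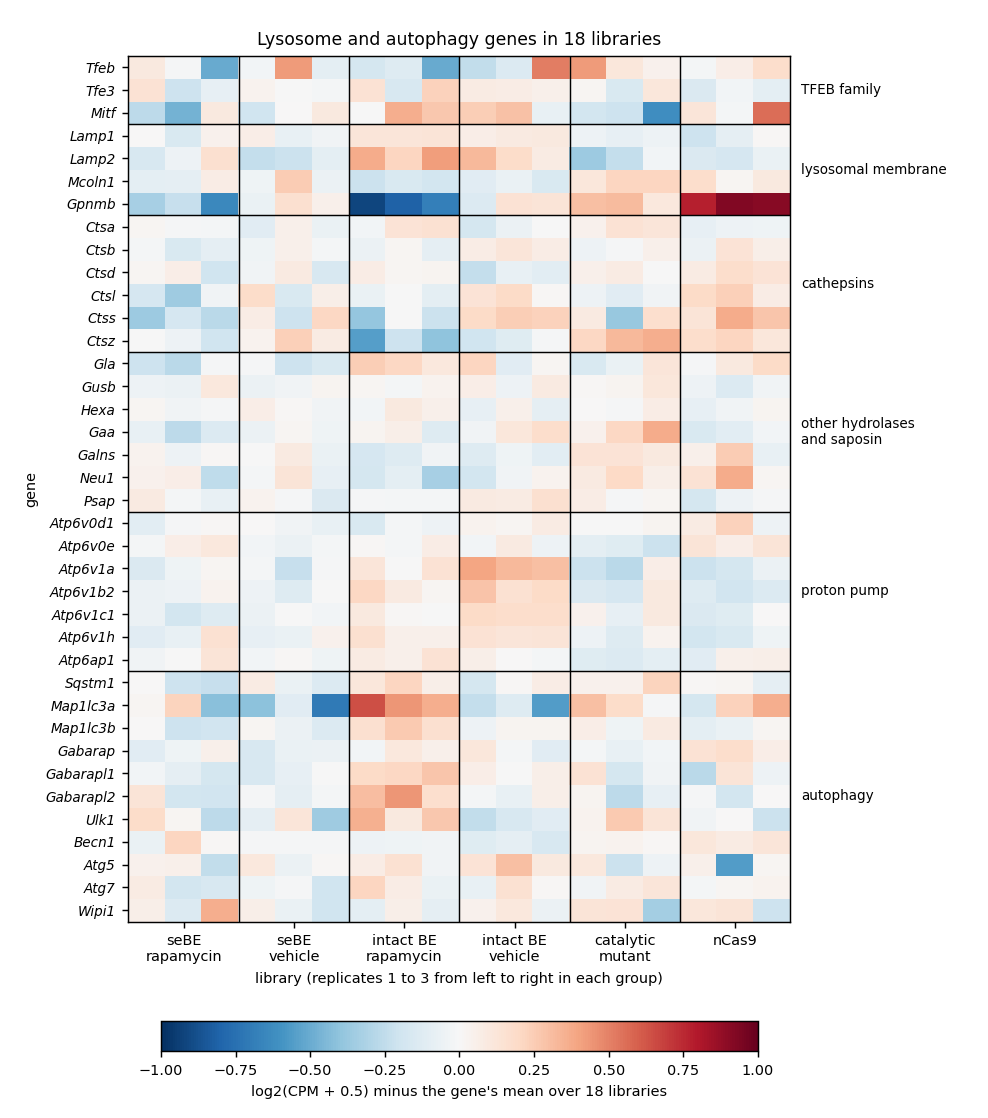
Levels of the 38 genes in 18 libraries, as log2(CPM + 0.5) minus the mean of the gene over all libraries, with genes in rows by role and libraries in columns by group. Gpnmb is the row with the widest range, from 11.5 CPM in a library of intact BE under rapamycin to 42.7 CPM in a library of nCas9, and most other rows stay pale.

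Genes of the TFEB family, which encode the transcription factors themselves, did not pass the threshold in any comparison. Tfeb averaged 9.1 ± 1.99 CPM in seBE under rapamycin, 10.8 ± 2.32 in seBE, 8.18 ± 1.18 in intact BE under rapamycin, 10.5 ± 3.3 in intact BE, 11.5 ± 1.72 in the catalytic mutant and 10.5 ± 0.735 in nCas9 (SD, n = 3 each). Tfe3 was higher in level, between 35.1 and 39.5 CPM over the group means, and Mitf lower, between 3.17 and 4.92 CPM. For Tfeb the libraries of intact BE spanned 8.28 to 14.3 CPM, a range that held all 3 nCas9 and all 3 mutant libraries. The log2 fold changes of Tfeb were -0.25 ± 0.213 (SE) for rapamycin in seBE, -0.37 ± 0.214 for rapamycin in intact BE, 0.01 ± 0.213 for intact BE against nCas9 and 0.13 ± 0.213 for the catalytic mutant against nCas9.

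Gpnmb varied most. It encodes a glycoprotein of melanosomes and lysosomes and is a known target of MITF. It had 17.6, 18.8 and 14 CPM in seBE under rapamycin, 21.2, 24.9 and 23 in seBE, 11.5, 12.5 and 13.6 in intact BE under rapamycin, 20.1, 24.6 and 24.3 in intact BE, 27.5, 27.8 and 23.9 in the catalytic mutant, and 38.4, 42.7 and 42.1 CPM in nCas9. Every nCas9 library lay above every other library, and the 3 libraries of intact BE under rapamycin were the lowest. The ratio of its highest to its lowest group mean was 3.27, with an adjusted p of 2.88e-10 in the edgeR test of any difference among the 6 groups. In the order of group means, seBE at 23.1 CPM and intact BE at 23 CPM were neighbors whose libraries overlapped, as did those of the catalytic mutant and seBE.

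**Figure D3:**
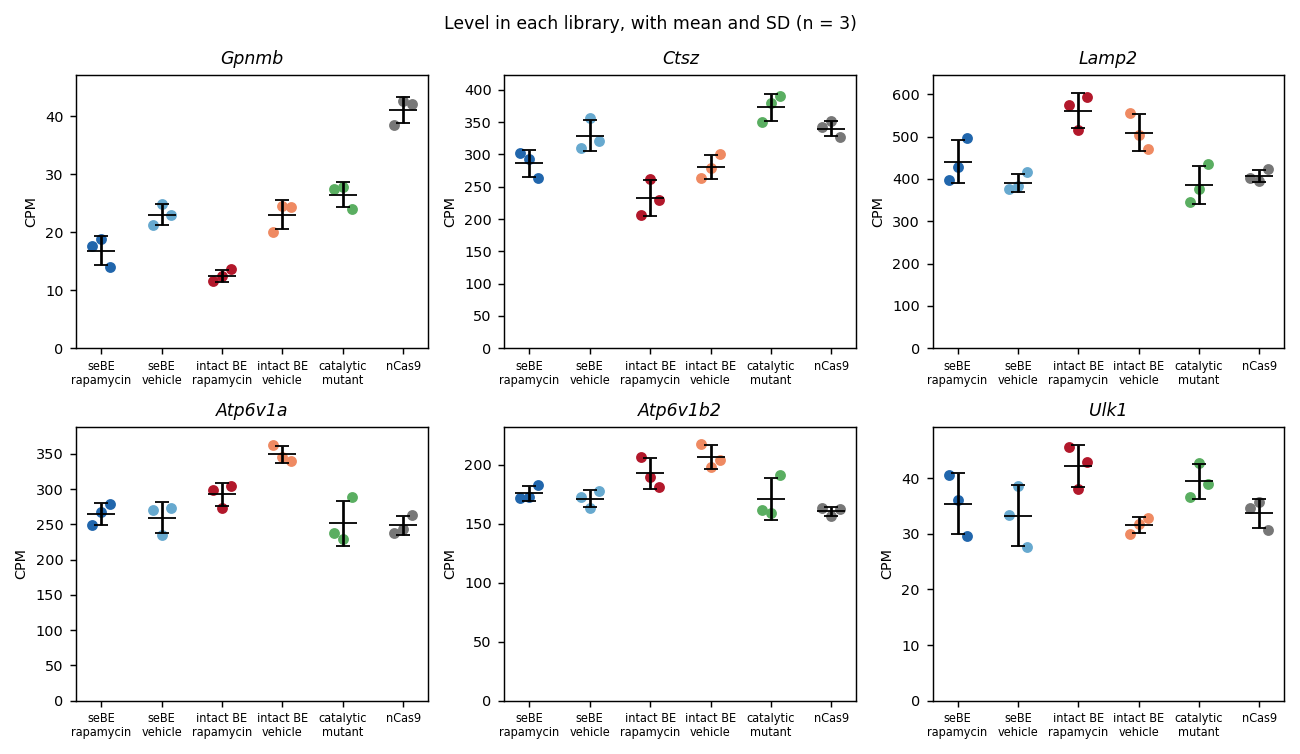
Level of 6 genes in each library, in CPM on axes that start at 0. Points are single libraries, horizontal bars are group means and error bars the SD of 3 libraries. For Gpnmb the 3 nCas9 libraries lie at 38.4 to 42.7 CPM, above all others, and for Atp6v1a the 3 intact BE libraries lie at 340 to 363 CPM, above all others.

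Intact BE was set against nCas9 to see what an active editor adds to the nickase. Of the proton pump, 4 genes of the V1 sector, which faces the cytosol, were higher in intact BE, and Gpnmb and the cathepsin genes Ctsz and Ctsd were lower. In all, 11 of the 38 genes passed (28.9%), against 23% of all genes. Of these 6 were higher, where 13.1% of all genes were higher, and 5 lower, where 9.83% of all genes were lower. Libraries of the groups did not overlap for 14 of the 38 genes, against 38% of all genes. The share called was near the background, and the median log2 fold change was 0.00 over the 38 genes and -0.04 over all genes.

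The proton pump had 4 of 7 genes higher and none lower, and all 4 encode parts of its V1 sector, which splits ATP. Atp6v1a, the catalytic subunit, had 363, 345 and 340 CPM in intact BE, against 237, 244 and 264 CPM in nCas9 (log2 0.49 ± 0.0799, SE; edgeR adjusted p = 3.22e-05). Atp6v1b2, which alternates with it in the ring, had 218, 198 and 204 CPM in intact BE, against 163, 156 and 162 CPM in nCas9 (log2 0.36 ± 0.0756, adjusted p = 0.000554). Atp6v1c1, a stalk subunit that ties V1 to the membrane sector, had 115, 113 and 114 CPM in intact BE, against 91, 92.5 and 101 CPM in nCas9 (log2 0.27 ± 0.0741, adjusted p = 0.00794). For these 3 genes the groups did not overlap. Atp6v1h, a regulatory V1 subunit, was also higher without overlap (log2 0.25 ± 0.0771, adjusted p = 0.0145). The 2 members from the membrane sector V0, Atp6v0d1 and Atp6v0e, and the accessory gene Atp6ap1 did not pass, with log2 values of -0.05 ± 0.0737, -0.10 ± 0.0717 and 0.01 ± 0.0696. Their exons are also shorter, at 1793, 3712 and 3026 bases, against 5305 to 9746 bases for the 4 V1 members. With the trend of level on gene length removed, Atp6v0d1 was at 0.09, Atp6v0e at -0.09 and Atp6ap1 at 0.06. The V1 members were then at 0.42, 0.31, 0.21 and, for Atp6v1h, 0.11. The part of length in the split between sectors was not tested. Other genes listed with the pump, not all of them subunit genes, did not move one way. Of 16 tested outside the 38, 3 were higher and 2 lower. Among these were Tcirg1, a V0 subunit, at -0.58 ± 0.0969 (adjusted p = 5.29e-05), Tm9sf4 at 0.41 and Rogdi at -0.48. The 16 include the V1 subunit genes Atp6v1d, Atp6v1e1, Atp6v1f, Atp6v1g1 and Atp6v1g2. The median log2 value of the set of 16 was -0.09, with 5 above 0. The V1 genes in it were not summarized apart, so a rise of the V1 sector as a whole was not shown.

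Among membrane proteins, Lamp2, a glycoprotein needed for fusion with autophagosomes, had 556, 503 and 470 CPM in intact BE, against 402, 395 and 423 CPM in nCas9 (log2 0.33 ± 0.084, edgeR adjusted p = 0.00434), without overlap. Gpnmb was lower, at 23 ± 2.49 CPM in intact BE against 41.1 ± 2.3 CPM in nCas9 (log2 -0.84 ± 0.129, adjusted p = 1.85e-05). Lamp1 was at 0.18 ± 0.0679 (adjusted p = 0.057) and Mcoln1, the lysosomal calcium channel, at -0.21 ± 0.111, and neither passed. Ctsz, a cysteine protease gene, had 263, 279 and 301 CPM in intact BE, against 342, 351 and 327 CPM in nCas9 (log2 -0.28 ± 0.0796, adjusted p = 0.0105). Ctsd had 217, 244 and 237 CPM in intact BE, against 270, 289 and 281 CPM in nCas9 (log2 -0.27 ± 0.0744, adjusted p = 0.00823). Neither of these 2 cathepsin genes overlapped between groups, and the other 4, Ctsa, Ctsb, Ctsl and Ctss, lay between -0.06 and 0.04.

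Of the other hydrolases and saposins, Psap, which encodes the precursor of the saposins that help to break down sphingolipids, was higher at log2 0.19 ± 0.0697 (edgeR adjusted p = 0.0482), and Neu1, a sialidase gene, was lower at -0.24 ± 0.0908 (adjusted p = 0.0493). Of the 11 autophagy genes only Becn1, which encodes Beclin 1, passed: it had 155, 158 and 150 CPM in intact BE, against 183, 179 and 183 CPM in nCas9 (log2 -0.23 ± 0.0706, adjusted p = 0.0143), without overlap. Sqstm1, the gene of p62, was at -0.01 ± 0.0808, Map1lc3b at 0.05 ± 0.0767 and Ulk1 at -0.09 ± 0.123. Reads of Ctsz, Becn1 and Atp6v1h cannot be told from those of the overlapping genes Nelfcd, Cntd1 and Rgs20 on the opposite strand, because the strand setting of the counting is not given. Ctsd shares exon bases with Gm49369 on the same strand, which no strand setting would separate.

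Some of these calls moved with gene length. The 6 members that were higher in intact BE had a median exon length of 5822.5 bases, against 3733 for the 5 that were lower and 4479 for all 38. When the trend of level on length was removed, 9 members passed, 6 of them among the 11: Gpnmb at -0.92, Atp6v1a at 0.42, Atp6v1b2 at 0.31, Atp6v1c1 at 0.21, Psap at 0.25 and Becn1 at -0.33. Lamp2 at 0.18 (edgeR adjusted p = 0.0986), Atp6v1h at 0.11 (0.326), Ctsz at -0.11 (0.335), Ctsd at -0.18 (0.0656) and Neu1 at -0.23 (0.0572) no longer passed. Of these, the value of Neu1 was nearly the same as before, and those of Lamp2, Atp6v1h and Ctsz moved farther towards 0 than that of Ctsd, while Lamp1 at 0.24, Mcoln1 at -0.32 and Atg5 at 0.40 newly did. The calls of Gpnmb, Atp6v1a, Atp6v1b2, Atp6v1c1 and Lamp2, without the length correction, held when any 1 library was left out. Those of the other 6 did not: Ctsd lost its call without replicate 1 of intact BE (adjusted p = 0.0797), Ctsz without that library or replicate 2 of nCas9 (0.0553 to 0.0853), Atp6v1h without replicate 1 or 2 of nCas9 (0.0511 to 0.0654) and Becn1 without replicate 1 or 3 of intact BE or replicate 1 of nCas9 (0.0532 to 0.0809). Neu1 lost it without replicate 1 or 2 of either group (0.0835 to 0.376), and Psap without any library except replicate 3 of nCas9 (0.0713 to 0.203). The number of members called was 6 without replicate 1 of intact BE, 7 without replicate 2 of nCas9 and 9 without that library and replicate 3 of the catalytic mutant.

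**Figure D4:**
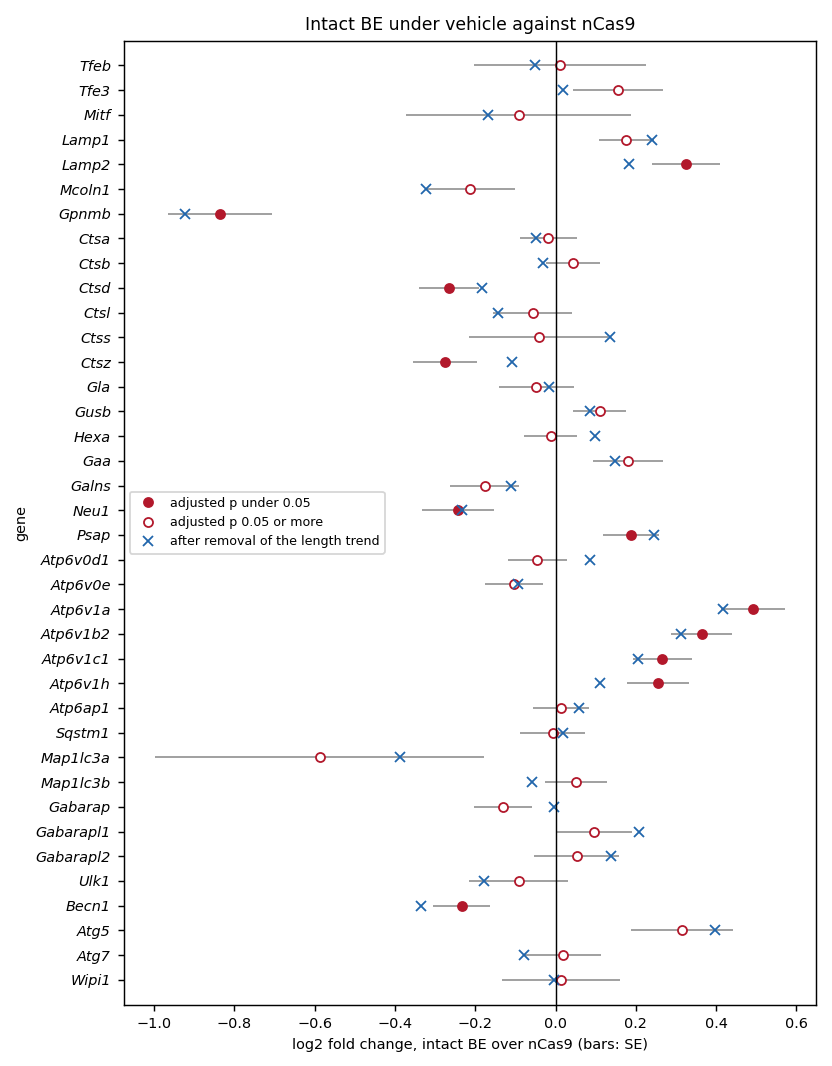
Log2 fold change of each of the 38 genes in intact BE over nCas9, with SE bars. Filled red points passed the threshold, open red points did not, and blue crosses give the value after the trend of level on gene length was removed. Atp6v1a at 0.49 and Gpnmb at -0.84 are the filled points farthest from 0, and for Lamp2, Ctsz and Atp6v1h the cross lies closer to 0 than the point.

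Other lysosome and autophagy genes outside the 38 moved both ways between intact BE and nCas9. Of 46 other autophagy genes tested, 6 were higher and 8 lower, with Ncoa4, the receptor for ferritin, at log2 0.63 ± 0.0805 (edgeR adjusted p = 1.8e-06), the cargo receptor gene Tax1bp1 at 0.35 and Atg101, of the ULK1 complex, at -0.51. Of 24 genes for sorting to the lysosome and fusion, 6 were higher and 4 lower, with the sorting receptor gene Sort1 at 0.57 ± 0.0777 (adjusted p = 4.13e-06), and Vps16 and Vps33a, both of the HOPS tethering complex, at -0.58 and 0.41. Of 35 other hydrolase genes, 4 were higher and 4 lower, with the acid ceramidase gene Asah1 at 0.40, the acid lipase gene Lipa at 0.34 and Arsb at 0.51. Of 30 other membrane proteins and transporters, 2 were higher and 7 lower, with the chloride transporter gene Clcn7 at -0.46, Tmem192 at -0.57 and Slc29a3 at 0.53. Of 13 genes listed as other proteases, which include the phospholipase gene Pla2g15, 2 were higher and 2 lower, led by Ctsc at 0.30. Of 24 genes that control TFEB at the lysosome, 3 were higher and 2 lower, with Lamtor4, of the Ragulator complex, at -0.45, the TFEB relative Tfec at 0.37 and the calcineurin subunit gene Ppp3r1 at 0.37. The calls of all genes named here held when any 1 library was left out.

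The catalytic mutant was set against nCas9 to see the changes that do not need deaminase activity. Of the 38 genes 3 passed (7.89%), against 4.3% of all genes. Of these 1 was higher, where 2.24% of all genes were higher, and 2 were lower, where 2.06% of all genes were lower, and 12 did not overlap between groups, against 21.3% of all genes. Gpnmb was again lower, at 26.4 ± 2.16 CPM in the catalytic mutant against 41.1 ± 2.3 CPM in nCas9 (log2 -0.63 ± 0.129, edgeR adjusted p = 0.00393). Gaa, the gene of the enzyme that breaks down glycogen in lysosomes, had 84.9, 95 and 107 CPM in the mutant, against 74, 76.7 and 80.9 CPM in nCas9 (log2 0.31 ± 0.0869, adjusted p = 0.0342). Atp6v0e had 106, 104 and 98 CPM in the mutant, against 124, 119 and 124 CPM in nCas9 (log2 -0.25 ± 0.072, adjusted p = 0.0369). None of these 3 genes overlapped between groups. The V1 genes called in intact BE against nCas9 were here at 0.02 ± 0.0801 for Atp6v1a, 0.09 ± 0.0758 for Atp6v1b2, 0.11 ± 0.0744 for Atp6v1c1 and 0.07 ± 0.0773 for Atp6v1h. Of the remaining factors and markers, Tfe3 was at 0.09, Mitf at -0.64 ± 0.287, Lamp1 at 0.03, Sqstm1 at 0.12, Map1lc3b at 0.09 and Ulk1 at 0.23 ± 0.123. Outside the 38 genes, the hydrolase genes Pld3 at 0.50 ± 0.0877 and Man2b1 at 0.31 were higher, and Atp6v1g1, another V1 subunit, was lower at -0.42 ± 0.0874, and at adjusted p = 0.0551 without replicate 2 of nCas9.

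These calls depended on single libraries. Without replicate 2 of nCas9 and replicate 3 of the catalytic mutant none of the 38 genes passed the edgeR test, and Gpnmb was at log2 -0.53 with adjusted p = 0.0999. Gaa lost its call without replicate 2 or 3 of the mutant or replicate 1 or 2 of nCas9 (adjusted p = 0.0641 to 0.192), and Atp6v0e without any 1 library (0.0725 to 0.143), while Gpnmb kept its call without any single library.

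Deaminase activity itself was addressed by intact BE against its catalytic mutant. Of the 38 genes 4 passed (10.5%), against 21% of all genes. Of these 3 were higher, where 11.6% of all genes were higher, and 1 was lower, where 9.33% of all genes were lower, and 22 did not overlap between groups, against 37.8% of all genes. Atp6v1a had 363, 345 and 340 CPM in intact BE, against 237, 229 and 288 CPM in the mutant (log2 0.47 ± 0.08, edgeR adjusted p = 0.000117), and Atp6v1b2 was at 0.28 ± 0.0757 (adjusted p = 0.00759). Lamp2 had 556, 503 and 470 CPM in intact BE, against 346, 376 and 435 CPM in the mutant (log2 0.40 ± 0.0842, adjusted p = 0.000789). Ctsz was lower, with 263, 279 and 301 CPM in intact BE, against 350, 379 and 390 CPM in the mutant (log2 -0.41 ± 0.0797, adjusted p = 0.000422). The groups did not overlap for any of these 4 genes. Gpnmb was at -0.20 ± 0.131 (adjusted p = 0.319), Lamp1 at 0.15, Ulk1 at -0.32 ± 0.123, Sqstm1 at -0.13, Map1lc3b at -0.04, Tfeb at -0.12, Tfe3 at 0.07 and Mitf at 0.55 ± 0.289, and none of these passed. All 7 pump members had values above 0, from 0.04 to 0.47. Atp6v1b2 lost its call without replicate 1 or 2 of the mutant or replicate 1 of intact BE (adjusted p = 0.0511 to 0.0707). The count of members was sensitive to settings and stood at 9 with DESeq2 and at 8 with the length trend removed, with the same 4 among them each time.

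In the wider pathway, intact BE against the mutant had 11 of 46 other autophagy genes higher and 3 lower, led by Vamp8, a SNARE of fusion with lysosomes, at -0.61 ± 0.0902 (edgeR adjusted p = 3.12e-05), Tax1bp1 at 0.44 and Ncoa4 at 0.48. Of 24 sorting and fusion genes 6 were higher and 5 lower, led by Vps16 at -0.58, and of 30 membrane proteins and transporters 2 were higher and 7 lower, led by Atp13a2 at -0.48. Of 16 other genes listed with the pump 2 were higher and 3 lower, led by Tcirg1 at -0.64 ± 0.097. Of 35 other hydrolases 2 were higher and 5 lower, led by Lipa at 0.48. Of the 13 genes listed as other proteases 2 were higher and 1 lower, led by Ctsc at 0.42. Of 24 genes of TFEB control 5 were higher and 3 lower, led by Ppp3r1 at 0.45. This comparison and the preceding ones share their intact BE, mutant and nCas9 libraries.

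The comparison of seBE with nCas9 asks what the controlled editor changes without its drug. Only Gpnmb passed among the 38 genes (2.63%), against 4.56% of all genes, and it was lower, where 1.93% of all genes were lower and 2.64% higher. Libraries of 5 members did not overlap between groups, against 22.5% of all genes. It stood at 23.1 ± 1.88 CPM in seBE against 41.1 ± 2.3 CPM in nCas9 (log2 -0.83 ± 0.129, edgeR adjusted p = 0.000195), and the call held without any single library and without replicate 2 of nCas9 and replicate 3 of the mutant together (adjusted p = 0.00233). The 4 V1 genes were at 0.05 to 0.09, Lamp2 at -0.06 ± 0.0841, Ctsz at -0.05 ± 0.0795, Lamp1 at 0.08, Sqstm1 at -0.02, Map1lc3b at -0.01 and Ulk1 at -0.02. Tfeb was at 0.04, Tfe3 at 0.09 and Mitf at -0.30 ± 0.282. Outside the 38, Scpep1, a lysosomal serine carboxypeptidase gene, was lower at log2 -0.58 ± 0.113 (adjusted p = 0.00262), and Sort1 was higher at 0.38 ± 0.0777, with adjusted p = 0.0827 without replicate 1 of seBE.

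Set against intact BE, seBE had lower levels of 2 V1 pump genes and of Lamp2. Of the 38 genes 3 passed (7.89%), against 3.99% of all genes, and all were lower in seBE, where 2.32% of all genes were lower and 1.68% higher. Libraries did not overlap for 14 members, against 29.4% of all genes. Atp6v1a had 271, 235 and 274 CPM in seBE, against 363, 345 and 340 CPM in intact BE (log2 -0.43 ± 0.0799, edgeR adjusted p = 0.00232). Lamp2 had 376, 383 and 416 CPM in seBE, against 556, 503 and 470 CPM in intact BE (log2 -0.38 ± 0.0841, adjusted p = 0.0101). Atp6v1b2 had 172, 163 and 178 CPM in seBE, against 218, 198 and 204 CPM in intact BE (log2 -0.27 ± 0.0756, adjusted p = 0.0358). The groups did not overlap for these 3 genes. All 7 pump members had values below 0, between -0.43 and -0.03, while Gpnmb was at 0.01 ± 0.131. Lamp1 was at -0.10, Sqstm1 at -0.01, Map1lc3b at -0.06, Ulk1 at 0.07, Tfeb at 0.03, Tfe3 at -0.06 and Mitf at -0.21 ± 0.283. Lamp2 lost its call without replicate 1 of intact BE or replicate 2 of seBE (adjusted p = 0.0761 to 0.12), and Atp6v1b2 without any library except replicate 3 of seBE (0.0652 to 0.257), while Atp6v1a kept its call without any single library. With the length trend removed Atp6v1b2 was at -0.25 (adjusted p = 0.0548).

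Of the wider pathway, Scpep1 was lower in seBE, with 29.9, 32.1 and 26.9 CPM against 43.4, 51.3 and 48.1 CPM in intact BE (log2 -0.68 ± 0.113, edgeR adjusted p = 0.000561), without overlap. Vamp8 was higher at 0.47 ± 0.0901 and Gnptab, which builds the mannose-6-phosphate tag of lysosomal enzymes, was lower at -0.34 ± 0.0727. Without replicate 1 of intact BE or replicate 2 of seBE, Vamp8 was at adjusted p = 0.0619 to 0.0732 and Gnptab at 0.0671 to 0.0896. In all, 1 of 46 other autophagy genes was higher and 2 lower, and 1 of 24 sorting and fusion genes was higher and 2 lower.

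Rapamycin against vehicle in intact BE asks what the drug does in cells with the editor that is not drug-controlled. Gpnmb and Ctsz fell and Ulk1 rose, and the treated libraries of Map1lc3a, Map1lc3b, Gabarapl1 and Gabarapl2 all lay above the untreated ones without passing. In all, 3 of the 38 genes passed (7.89%), against 3.32% of all genes. The 1 that rose is set against 1.98% of all genes that rose, and the 2 that fell against 1.34% that fell. Libraries did not overlap for 18 members, against 22.3% of all genes. Gpnmb had 11.5, 12.5 and 13.6 CPM under rapamycin, against 20.1, 24.6 and 24.3 CPM under vehicle (log2 -0.87 ± 0.134, edgeR adjusted p = 5.65e-05). Ulk1, the kinase gene that starts autophagy, had 45.6, 38.1 and 43 CPM under rapamycin, against 30, 31.8 and 33 CPM under vehicle (log2 0.42 ± 0.122, adjusted p = 0.0482). Ctsz had 207, 262 and 229 CPM under rapamycin, against 263, 279 and 301 CPM under vehicle (log2 -0.27 ± 0.0798, adjusted p = 0.0489). The groups did not overlap for these 3 genes, although the highest treated and lowest untreated library of Ctsz were close.

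Autophagy genes had a median log2 value of 0.16 in this comparison, where all genes tested had -0.0036, and 9 of the 11 lay above 0. Gabarapl2 had 53.2, 58.4 and 48.2 CPM under rapamycin, against 42.1, 40.7 and 44.5 CPM under vehicle (log2 0.33 ± 0.106, edgeR adjusted p = 0.0839). Map1lc3b had 121, 129 and 120 CPM under rapamycin, against 104, 110 and 109 CPM under vehicle (log2 0.20 ± 0.0763, adjusted p = 0.187), and Map1lc3a had 3.25, 2.75 and 2.58 CPM, against 1.53, 1.69 and 1.13 CPM (log2 0.98 ± 0.406, adjusted p = 0.222). These genes did not overlap between groups and did not pass. Sqstm1 was at 0.16 ± 0.0806, Lamp1 at 0.04, Tfe3 at 0.02 and Mitf at 0.06 ± 0.279. Marker genes of cell types moved with the drug in intact BE as well. The myeloid list summed to 2689 to 2753 CPM under rapamycin and 2542 to 2591 CPM under vehicle, but its genes moved both ways. Lyz2 averaged 640 CPM under rapamycin against 432 CPM under vehicle and Itgam 201 CPM against 135 CPM. Ptprc, Spi1, Csf1r and Kit also averaged higher under rapamycin. Elane averaged 503 CPM under rapamycin against 605 CPM under vehicle, Mpo 233 against 289, Hoxa9 266 against 299 and Cd68 29.8 against 30.9. The macrophage list summed to 111 to 120 CPM under rapamycin and 94.9 to 102 CPM under vehicle, nearly all of it Adgre1, while C1qa, C1qb, Vsig4 and Marco were at 0 in all 6 of these libraries. The fibroblast list summed to 19.2 to 26.8 CPM under rapamycin and 14.3 to 17.6 CPM under vehicle, nearly all of it Pdgfrb, while Col1a2, Col3a1 and Dcn were at 0. The part of these in the result was not tested.

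Outside the 38 genes, Scpep1 fell under rapamycin in intact BE, with 23.1, 26.9 and 22.9 CPM under rapamycin against 43.4, 51.3 and 48.1 CPM under vehicle (log2 -0.97 ± 0.113, edgeR adjusted p = 7.93e-07). Sesn2, a leucine sensor and stress gene upstream of mTORC1, fell as well, at 24.8 ± 0.672 CPM against 38.2 ± 2.52 CPM (log2 -0.62 ± 0.104, adjusted p = 0.000179). Bnip3l, a receptor for the removal of mitochondria, rose, at 123 ± 9.44 CPM against 90.5 ± 7.21 CPM (log2 0.44 ± 0.0887, adjusted p = 0.00223), and so did Nbr1, a cargo receptor gene, at 0.35 ± 0.0804, and Atp6v1e1, a V1 stalk subunit, at 0.32 ± 0.066. Trp53inp2 fell by 0.70 on the log2 scale. Without replicate 1 of intact BE under rapamycin Trp53inp2 was at adjusted p = 0.0507, and without that library or replicate 2 under vehicle Nbr1 was at 0.0572 to 0.0712. In all, 3 of 46 other autophagy genes rose and 2 fell, and none of the other hydrolases, membrane proteins or sorting genes passed.

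The calls of Ulk1 and Ctsz were close to the threshold. Ulk1 lost its call without any library of these groups except replicate 2 under rapamycin (edgeR adjusted p = 0.114 to 0.269), and Ctsz lost it without replicates 1 or 3 under rapamycin or 2 or 3 under vehicle (0.137 to 0.377). Ctsz also missed it with the length trend removed (0.0532). Gpnmb kept its call without any single library.

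Rapamycin in seBE, where the drug controls the editor, called none of the 38 genes and 0% of all genes in the edgeR test. At an unadjusted p under 0.05 edgeR had 4 members and 493 genes, and DESeq2 had 3 members and 556 genes, with 0 members and 1 gene past its adjusted threshold. Libraries did not overlap for 5 members, against 8.06% of all genes. Gpnmb had 17.6, 18.8 and 14 CPM under rapamycin, against 21.2, 24.9 and 23 CPM under vehicle, without overlap (log2 -0.46 ± 0.132, adjusted p = 0.999). Ulk1 was at 0.09 ± 0.122, Map1lc3b at -0.07 ± 0.0766, Gabarapl2 at -0.03 ± 0.106, Sqstm1 at -0.10 ± 0.0807, Lamp1 at -0.02, Tfe3 at -0.04, Mitf at -0.19 ± 0.283 and Ctsz at -0.20 ± 0.0795. The median of the 11 autophagy genes was 0.0031, where that of all genes was 0.00115.

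**Figure D5:**
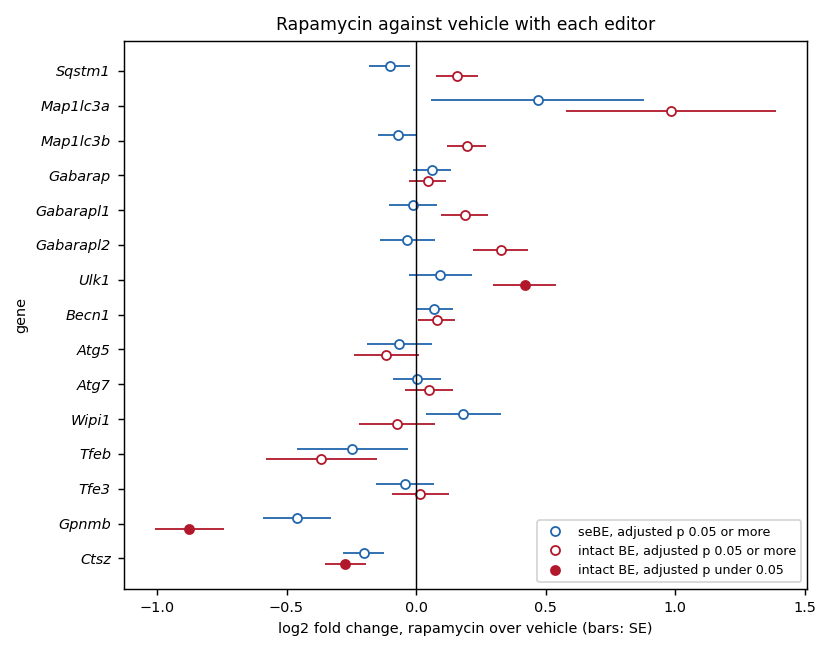
Log2 fold change of rapamycin over vehicle in seBE (blue) and in intact BE (red) for the 11 autophagy genes and for Tfeb, Tfe3, Gpnmb and Ctsz, with SE bars. Filled points passed the threshold, which only Ulk1, Gpnmb and Ctsz in intact BE did, and for Gpnmb both editors lie left of 0, at -0.46 in seBE and -0.87 in intact BE.

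The difference between the drug effects was tested directly, as the effect in seBE minus the effect in intact BE. None of the 38 genes passed, against 0.187% of all genes, with 0.0734% of all genes higher and 0.113% lower. At an unadjusted p under 0.05 edgeR had 5 members and 1044 genes, and DESeq2 also had 5 members but called none. The differences with the lowest p among members were 0.28 ± 0.113 for Atp6v1a, -0.27 ± 0.108 for Map1lc3b, -0.36 ± 0.15 for Gabarapl2, -0.26 ± 0.114 for Sqstm1 and 0.42 ± 0.188 for Gpnmb, with edgeR adjusted p from 0.528 to 0.637. The drug effect on Ulk1 was therefore not shown to differ between editors, at -0.33 ± 0.173. Of the wider pathway Scpep1 passed, at 0.89 ± 0.16 (adjusted p = 0.00564).

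Under rapamycin, seBE and intact BE differed in LC3 and GABARAP genes. Of the 38 genes 7 passed (18.4%), against 4.69% of all genes, of which 6 were lower in seBE, where 2.66% of all genes were lower, and 1 was higher, where 2.04% were. Libraries did not overlap for 12 members, against 19.6% of all genes. Map1lc3b had 108, 93.2 and 94.3 CPM in seBE, against 121, 129 and 120 CPM in intact BE (log2 -0.33 ± 0.0761, edgeR adjusted p = 0.00903). Gabarapl2 had 46.7, 37.7 and 37.4 CPM in seBE, against 53.2, 58.4 and 48.2 CPM in intact BE (log2 -0.39 ± 0.105, adjusted p = 0.0236). Gabarapl1 had 68.5, 65.6 and 61.7 CPM in seBE, against 79.7, 80.5 and 84.5 CPM in intact BE (log2 -0.32 ± 0.0916, adjusted p = 0.0345). These 3 genes, which encode proteins that are attached to the autophagosome membrane, did not overlap between groups. Reads of Map1lc3b, Gabarapl1 and Sqstm1 can include those of genes that overlap them on the opposite strand.

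The cargo receptor gene Sqstm1 had 190, 164 and 161 CPM in seBE, against 205, 220 and 197 CPM in intact BE (log2 -0.27 ± 0.0805, edgeR adjusted p = 0.0399). Lamp2 had 396, 429 and 497 CPM in seBE, against 575, 515 and 594 CPM in intact BE (log2 -0.35 ± 0.0838, adjusted p = 0.0107). Gla, which removes terminal galactose from glycolipids, had 68, 65.3 and 78.2 CPM in seBE, against 93.5, 90.7 and 84.6 CPM in intact BE (log2 -0.35 ± 0.0928, adjusted p = 0.0241). All 3 were without overlap. Ctsz went the other way, with 302, 293 and 263 CPM in seBE, against 207, 262 and 229 CPM in intact BE (log2 0.30 ± 0.0796, adjusted p = 0.0229), and its lowest seBE library was level with the highest intact BE library. Gpnmb was at 0.42 ± 0.134 (adjusted p = 0.0631), Lamp1 at -0.16, Ulk1 at -0.25 ± 0.121, Tfeb at 0.15, Tfe3 at -0.12 and Mitf at -0.46 ± 0.28. The 4 V1 genes lay between -0.16 and -0.10 and did not pass.

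None of these 7 calls held in every fit without 1 library. The count was 0 without replicate 2 of seBE under rapamycin, 1 without replicate 1 of intact BE under rapamycin, 2 and 3 without its replicates 2 and 3, 4 without replicate 1 of seBE, 5 without replicate 3 of seBE, and 1 when only the compared libraries were fitted. Adjusted p-values after loss of a call in the edgeR fits without 1 library ran from 0.0509 to 0.0768 for Map1lc3b, 0.066 to 0.083 for Lamp2, 0.0823 to 0.195 for Ctsz, 0.0731 to 0.15 for Gabarapl2, 0.0655 to 0.161 for Gla, 0.0664 to 0.143 for Gabarapl1 and 0.0643 to 0.195 for Sqstm1. Map1lc3b lost its call only without replicate 2 of seBE or replicate 2 of intact BE. With the length trend removed Ctsz was at 0.20 (adjusted p = 0.108). Outside the 38, the cargo receptor genes Tax1bp1 at -0.37 ± 0.0697 (adjusted p = 0.00107), Ncoa4 at -0.41 ± 0.0799 and Nbr1 at -0.41 ± 0.0801 were lower in seBE and Sesn2 was higher at 0.54 ± 0.103, and these 4 calls held without any single library.

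Members with and without an E-box core in the promoter window were also set side by side, without a test. In intact BE against nCas9, 1 of the 12 with the core was higher and 1 lower, with a median log2 of -0.03, against 2 higher and 3 lower of 19 without it and a median of 0.01. Atp6v1b2, Atp6v1c1 and Atp6v1h, which were higher there, and Becn1, which was lower, had no promoter sequence and are in neither set. For rapamycin in intact BE none of the 12 passed, with a median of -0.03, against 1 higher and 2 lower of the 19 and a median of 0.04. Of the 7 genes whose sequences are shown above, Atp6v1a and Ctsd passed in intact BE against nCas9, Atp6v1a higher and Ctsd lower, and the other 5 did not pass there.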

How the data were processed

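RNA-seq counts per gene from 18 libraries were used as the authors deposited them, as raw counts that were not normalized. The submitters' processing notes name fastp 1.0.1, STAR 2.7.1a, SAMtools 1.9, Subread 2.0.3, featureCounts and DESeq2 with the build GRCm39, without a version for the last of these tools or for featureCounts. The labels' protocols describe a directional library, while the strand setting of the counting is not given in the sources used here. The table held 0 columns of other samples.

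Groups came from the labels. All 18 libraries entered 1 fit in edgeR 4.0.16 (R 4.3.3, limma 3.58.1), with TMM scaling, filterByExpr and robust quasi-likelihood tests, adjusted by Benjamini-Hochberg over 14985 genes at a threshold of 0.05. Replicates varied by a coefficient of 13.3% (common dispersion 0.0176). SE is the log2 fold change divided by the square root of the F statistic, and CPM are at TMM-adjusted library sizes. The procedure was tested on simulated data. DESeq2 1.42.0, other filters, scalings and fits, and the omission of single libraries were alternatives. Exon lengths came from GENCODE M21 (GRCm38) for 97.4% of tested genes, and length trends were fitted on 9052 genes with a spline of 4 degrees of freedom. Of 201 other pathway genes listed, 200 were matched and 188 tested. Promoter sequences came from RefSeq (GRCm38.p6), where 7 members had no entry: Atp6v1c1, Becn1, Atp6v1b2, Atp6v1h, Ctsb, Galns and Map1lc3a.

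The members and lists were chosen with earlier results of these data known. Every member past the threshold is named in its comparison, with values per library for up to 8 members. From each list of other pathway genes at most 3 that passed are named, in order of adjusted p, and Tfeb, Tfe3, Mitf, Lamp1, Sqstm1, Map1lc3b, Ulk1 and Gpnmb are given in every group comparison.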

Additional observations from a re-analysis of the deposited data

Results flagged for a closer look

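Scpep1, which encodes a lysosomal serine carboxypeptidase and is not among the 38 genes, was the only gene of the 38 and of the 188 other pathway genes tested whose response to rapamycin differed between the editors in the edgeR interaction test. It had 26.2, 29.9 and 28.2 CPM in seBE under rapamycin, against 29.9, 32.1 and 26.9 CPM in seBE under vehicle. In intact BE it had 23.1, 26.9 and 22.9 CPM under rapamycin, against 43.4, 51.3 and 48.1 CPM under vehicle. The drug effect in seBE minus that in intact BE was 0.89 ± 0.16 on the log2 scale (SE, edgeR adjusted p = 0.00564). It lay between 0.82 and 0.98 when any 1 of the 12 libraries was left out, and the call held each time. The vehicle libraries of the editors did not overlap, and those of seBE were the lower ones.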

How the results depend on the processing

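None of the called members or named pathway genes changed direction under any alternative. Of 32 calls of members, 12 held in every fit without 1 library and 15 held under all other settings; of 88 calls of pathway genes, 51 and 65 did. The cause of the shifts in counts was not tested. With DESeq2, members called were 23 for any difference, 9 for intact BE against the mutant, 5 for seBE against intact BE and 2 for seBE against nCas9, and genes called were 1061 for the mutant against nCas9, 1077 for seBE against nCas9, 1151 for seBE against intact BE, 1 for rapamycin in seBE and 75 for the difference of drug effects. TMM without mitochondrial genes and the most abundant gene gave 6 members for intact BE against the mutant and 2 for rapamycin in intact BE, and a filter of 1 CPM in 3 libraries gave 8 and 2. With no filter, the mutant against nCas9 had 2 members, and genes called were 945 for seBE against intact BE and 66 for the difference of drug effects. When only the compared libraries were fitted, members called were 1 for the mutant against nCas9, 8 for intact BE against the mutant, 5 for seBE against intact BE, 5 for rapamycin in intact BE and 1 for seBE against intact BE under rapamycin, and genes called were 423 for the mutant against nCas9, 1837 for seBE against intact BE, 873 for rapamycin in intact BE and 312 for seBE against intact BE under rapamycin.

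The planned length correction was not run because the count table gives no lengths. Alternatives chosen after seeing the data were a correction with GENCODE lengths, the same with the replicate block, and a fit without replicate 2 of nCas9 and replicate 3 of the mutant. With the length trend removed, members called were 21 for any difference, 8 for intact BE against the mutant and 2 for seBE against intact BE. With the replicate block added, they were 24, 10 for intact BE against the mutant and 6 for rapamycin in intact BE, with 1021 genes for the mutant against nCas9, 965 for seBE against intact BE and 77 for the difference of drug effects. Without the 2 libraries, the mutant against nCas9 had 0 members and 40 genes, and seBE against nCas9 had 254 genes. Same-numbered libraries of different groups had deviations that correlated at -0.0692 to 0.115 (median 0.0167, 1 of 45 pairs over 0.1), so the numbers were not taken to pair the samples. Against that, 13 of 18 libraries correlated best with their own number, a hint of pairing from the data and not from the design. The replicate block by itself gave 7 members for intact BE against the mutant and 2 for seBE against nCas9, and genes called were 985 for the mutant against nCas9, 1089 for seBE against nCas9, 1173 for seBE against intact BE, 1085 for seBE against intact BE under rapamycin and 65 for the difference of drug effects.

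Without 1 library at a time, members called ran from 9 to 18 for any difference, 6 to 14 for intact BE against nCas9, 1 to 2 for the mutant against nCas9, 3 to 4 for intact BE against the mutant, 1 to 3 for seBE against intact BE, 1 to 3 for rapamycin in intact BE and 0 to 5 for seBE against intact BE under rapamycin. Genes called ran from 4008 to 5065 for any difference, 2331 to 3474 for intact BE against nCas9, 122 to 748 for the mutant against nCas9, 1662 to 2989 for intact BE against the mutant, 122 to 907 for seBE against nCas9, 52 to 518 for seBE against intact BE, 214 to 398 for rapamycin in intact BE, 0 to 1 for rapamycin in seBE, 256 to 1114 for seBE against intact BE under rapamycin and 11 to 56 for the difference of drug effects. The lowest counts came without replicate 2 of nCas9 for the mutant, replicate 1 of seBE for seBE against nCas9 and replicate 2 of seBE for seBE against intact BE. The standard errors were widest for Map1lc3a, Mitf and Tfeb, the members with the lowest mean CPM, and the part of depth in this was not tested.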
